A study of Mus musculus with 9 samples.

Results

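The genes encoding the cohesin complex of mitotic and meiotic cells were followed in RNA sequencing of whole mouse testes. The group consisted of the 10 genes Smc1a, Smc1b, Smc3, Rec8, Rad21l, Rad21, Stag1, Stag2, Stag3 and Sgo2a, chosen by symbol from the 22337 genes of the expression table. All 10 were present and all 10 passed the filter on low counts. The samples were 9 testes from mice 3 weeks old, 3 per genotype. The genotypes were wild-type (labelled WT-WT), Piwil4 WT/R264W (WT-KI) and Piwil4 R264W/R264W (KI-KI). The knock-in allele, R264W, puts tryptophan in place of an arginine in the germline PIWI protein PIWIL4 and was made by CRISPR-Cas9 in C57BL/6 zygotes. The number of founder lines behind it is not given in the sources used here. The comparisons asked whether the allele changed transcript levels in juvenile testes, in which spermatogenesis runs for the first time.

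Cohesin is a ring that holds sister chromatids together. A pair of SMC proteins forms the arms, a kleisin closes the ring, and a STAG protein binds the kleisin. Meiotic cells replace general subunits by germline paralogues, with Smc1b for Smc1a, Rec8 and Rad21l for Rad21, and Stag3 for Stag1 and Stag2, and these cohesins carry the axes on which homologous chromosomes synapse. Shugoshin, encoded by Sgo2a, brings the phosphatase PP2A to centromeres and protects Rec8 there from separase until the second meiotic division.

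The DNA just upstream of 4 germline subunits is shown so that the germline member of each pair of paralogues can be read beside its expression. The RefSeq table for GRCm38.p6 held promoter windows for 8 of the 10 genes, with 250 bases before the start and 50 after it (Rad21 and Stag2 were not matched). Each line gives the bases from 120 before to 10 after the start, 5′ to 3′ on the strand of the gene, and capitals mark TCCCGC, the core of the E2F motif.
Rec8 (chr14:55618046-55618175, plus strand): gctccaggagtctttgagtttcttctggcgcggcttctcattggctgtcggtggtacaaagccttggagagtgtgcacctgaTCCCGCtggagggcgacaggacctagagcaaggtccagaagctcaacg
Rad21l (chr2:151668524-151668653, minus strand): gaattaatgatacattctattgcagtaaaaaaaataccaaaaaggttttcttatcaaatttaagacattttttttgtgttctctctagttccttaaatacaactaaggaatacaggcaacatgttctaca
Smc1b (chr15:85131948-85132077, minus strand): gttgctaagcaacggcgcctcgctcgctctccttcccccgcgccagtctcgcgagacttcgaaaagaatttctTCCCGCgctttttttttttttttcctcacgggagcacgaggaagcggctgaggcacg
Stag3 (chr5:138280389-138280518, plus strand): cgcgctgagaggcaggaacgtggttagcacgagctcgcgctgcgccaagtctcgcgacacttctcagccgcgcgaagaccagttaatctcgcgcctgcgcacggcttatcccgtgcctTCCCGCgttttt

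The letters TCCCGC were found on one strand or the other in the windows of 7 of the 8 matched genes, against 20% of all 32851 windows and 22% of the 27025 genes with a window. Only Rad21l, a germline kleisin, lacked them, and the general subunits Smc1a, Smc3 and Stag1 had them as well. They began 38 bases before the start in Rec8, 47 in Smc1b and 2 in Stag3, where they span the start. The E-box CACGTG was in 1 of the 8, Stag3, at 170 bases before the start, and in 7.15% of all windows. GC content had a median of 60% in the 9 windows of these genes, with 29% in that of Rad21l, and 52.7% in all windows. A match of letters is a description and does not show binding.

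The estimated counts summed to between 17964135 and 24279056 per testis. Whole-testis markers were present, with a mean of 2121 FPKM for Ldhc of spermatocytes and 646 for Clu of Sertoli cells. Piwil4 itself had 18 to 46 counts per testis, and counts do not show which allele they come from. Testes of 1 genotype differed widely in how far the first wave had gone. A round spermatid score, averaged over 19 genes of these cells on the log2 CPM scale, ran from 1.09 in Piwil4 WT/R264W replicate 3 to 6.05 in wild-type replicate 1. Its mean was 3.51 ± 2.27 (SD, n = 3) in wild-type, 3.33 ± 2.05 in Piwil4 WT/R264W and 4.15 ± 1.61 in Piwil4 R264W/R264W testes. Among the 19 genes, Prm2 ran from 0 to 87 FPKM and Tnp1 from 0 to 58.7 over the testes. The score served as a continuous covariate and was measured from the same libraries. A score of 14 pachytene spermatocyte genes ran only from 8.31 to 8.85. In RNA of a whole testis, fewer cells of a type and less RNA per cell cannot be told apart.

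Germline subunits were at once the most and the least abundant of the 10. FPKM, which is scaled for transcript length and so allows genes to be compared, averaged 179 ± 9.32 (SD, n = 9) for Stag3 and 91.9 ± 5.98 for Smc1b, and no testis of one overlapped the other or any other member. Rad21 (30.7 ± 3.84), Stag1 (29.7 ± 3.43), Sgo2a (26.0 ± 2.63) and Smc3 (23.3 ± 2.48) followed, and each overlapped its neighbour in this order. Rec8 averaged 14.6 ± 5.30 FPKM, Stag2 10.4 ± 0.801, Smc1a 5.45 ± 1.16 and Rad21l 4.11 ± 0.962. Stag2 and Smc1a did not overlap, whereas Rec8 overlapped both Smc3 and Stag2, and Smc1a overlapped Rad21l. Rec8 varied most, with a highest value 3.01 times the lowest and a coefficient of variation of 36.2%. On the FPKM scale Stag3 had a ratio of 1.16 and a coefficient of 5.21%, the lowest of the 10. On scaled counts its coefficient was 8.47%, above those of Smc1b, Stag2 and Sgo2a (6.81 to 7.46%).

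**Figure D1:**
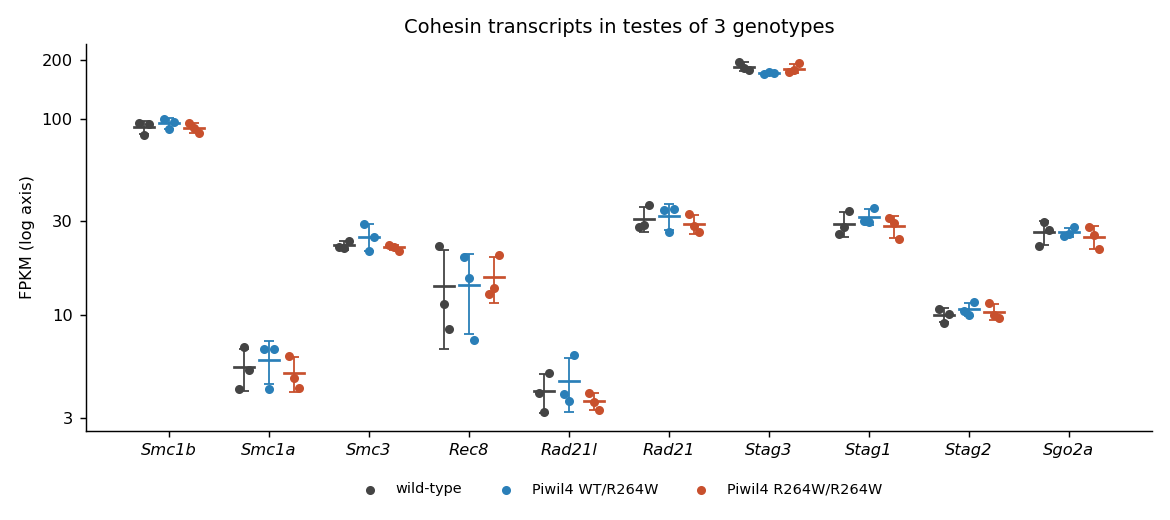
FPKM on a log axis for the 10 genes, with 1 point per testis and bars for the mean and SD of the 3 testes of each genotype. The genotypes overlap for every gene but Stag3, whose Piwil4 WT/R264W testes (173.3 or less) lie below the wild-type testes (176.5 or more), which holds in either direction for 4.68% of all genes tested. The widest spread within a genotype is that of Rec8, from 8.5 to 22.5 in wild-type testes.

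None of the 10 genes passed the test for a difference between genotypes. In Piwil4 R264W/R264W against wild-type testes, 0 of 10 had an edgeR adjusted p under 0.05, 0 reached that level without adjustment, and no gene had groups that did not overlap on the scaled counts (CPM). Over the 15543 genes tested, the same comparison called 0%, with 1.26% at the unadjusted threshold and 5.58% without overlap. Against Piwil4 WT/R264W testes the background was 0%, 2.22% and 7.06% of 15463 genes, and for Piwil4 WT/R264W against wild-type testes 0%, 1.11% and 5.36% of 15413 genes. The count was 0 of 10 for each of these rules in both comparisons. DESeq2 called 2 genes in the first comparison and 6 in the second, none of them a cohesin gene. The 3 comparisons share testes. An exact permutation test of 3 against 3 cannot go below 0.1, and its lowest p over the 10 genes in the 3 comparisons was 0.2.

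Among the SMC subunits, Smc1b, the germline partner of Smc3, had 95.4, 82.5 and 93.7 FPKM in wild-type, 100.4, 88.5 and 96.9 in Piwil4 WT/R264W and 95.6, 89.3 and 84.5 in Piwil4 R264W/R264W testes (replicates 1 to 3). The 3 groups lay on top of one another. The log2 change from wild-type to Piwil4 R264W/R264W was -0.022 (SE 0.099), with a 95% interval from 0.835 to 1.16-fold. Smc3, shared by mitotic and meiotic rings, had 22.1, 21.9 and 23.9 FPKM in wild-type, 29.0, 21.2 and 24.96 in Piwil4 WT/R264W and 22.7, 22.3 and 21.3 in Piwil4 R264W/R264W testes. Piwil4 WT/R264W replicate 1 stood above the other 8 testes. The interval for Piwil4 R264W/R264W against wild-type was the narrowest of the 10 for Smc3, at 0.870 to 1.09-fold. Smc1a, the general form encoded on the X chromosome, lay between 4.2 and 6.83 FPKM and overlapped between all genotypes. Its log2 change in the same comparison was 0.026 (SE 0.18).

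Among the kleisins, Rec8, which closes the ring that lasts until the meiotic divisions, had 22.5, 11.4 and 8.5 FPKM in the 3 wild-type testes. The Piwil4 WT/R264W testes had 19.8, 15.4 and 7.47 and the Piwil4 R264W/R264W testes 12.7, 13.8 and 20.3 FPKM. Wild-type and Piwil4 R264W/R264W testes thus each held 1 high testis with the others well below it. The Piwil4 WT/R264W testes were spread from 7.47 to 19.8 FPKM, with 15.4 between. The log2 change from wild-type to Piwil4 R264W/R264W was 0.12 (SE 0.42, edgeR adjusted p = 1.0), and its 95% interval ran from 0.537 to 2.20-fold, the widest of the 10. In 1 fit of all 9 testes the change was 0.12 (SE 0.47). With the round spermatid score added to that fit as a covariate it was 0.020 (SE 0.10), and Rad21l and Smc1a then had the larger SEs, 0.20 and 0.16. Without wild-type replicate 1 the change was 0.70 (adjusted p = 0.625), which passed the unadjusted threshold. Leaving out single testes turned its sign in 3 of 6 cases.

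Rad21l, a kleisin of early meiotic prophase, had 4.0, 3.21 and 5.06 FPKM in wild-type, 3.97, 3.63 and 6.23 in Piwil4 WT/R264W and 4.01, 3.62 and 3.28 in Piwil4 R264W/R264W testes. The Piwil4 R264W/R264W testes overlapped both other groups and lay below replicate 3 of each. Its log2 change was -0.17 (SE 0.20) against wild-type and -0.30 (SE 0.22, edgeR adjusted p = 0.948) against Piwil4 WT/R264W, and the latter interval of 0.567 to 1.16-fold included no change. Without Piwil4 WT/R264W replicate 3 that change was -0.049. Rad21, the kleisin of mitotic cells, had 28.2, 28.6 and 36.2 FPKM in wild-type, 34.4, 26.5 and 34.9 in Piwil4 WT/R264W and 32.8, 28.5 and 26.4 in Piwil4 R264W/R264W testes. The groups overlapped, and the log2 change against wild-type was -0.088 (SE 0.11).

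Among the STAG proteins, Stag3, the germline form, had 195.9, 181.2 and 176.5 FPKM in wild-type, 169.3, 173.3 and 171.3 in Piwil4 WT/R264W and 173.0, 176.6 and 192.1 in Piwil4 R264W/R264W testes. On the FPKM scale every Piwil4 WT/R264W testis was below every wild-type testis. Groups did not overlap on this scale for 1 of the 10 genes in that pair, beside 4.68% of all genes tested, and for 0 of 10 when Piwil4 R264W/R264W was set against wild-type (4.56%) or Piwil4 WT/R264W testes (6.86%). On the scaled counts that were tested the groups overlapped, and the log2 change was -0.15 (SE 0.11, edgeR adjusted p = 1.0, exact permutation p = 0.2). Stag1 had 25.8, 28.0 and 33.8 FPKM in wild-type, 30.2, 29.9 and 35.0 in Piwil4 WT/R264W and 31.4, 29.3 and 24.4 in Piwil4 R264W/R264W testes, and changed by -0.0086 (SE 0.11) on the log2 scale from wild-type to Piwil4 R264W/R264W. Stag2, encoded on the X chromosome, kept within 9.15 to 11.6 FPKM in all 9 testes. Its log2 change in that comparison was 0.033 (SE 0.10).

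Sgo2a, the protector of centromeric Rec8, had 22.5, 29.6 and 27.3 FPKM in wild-type, 25.4, 26.0 and 28.1 in Piwil4 WT/R264W and 28.1, 25.5 and 21.6 in Piwil4 R264W/R264W testes. The Piwil4 R264W/R264W testes included the lowest value of all. The log2 change from wild-type was -0.085 (SE 0.10), with an interval of 0.792 to 1.12-fold. Counts of Sgo2a were whole numbers in 1 of 9 libraries, unlike the other 9 genes, whose counts were whole in all 9. Its exons overlap those of Kctd18 on the opposite strand in GENCODE M21, and exons of Stag2 overlap those of Gm37564 likewise. Sgo2b, the near copy of Sgo2a, was listed at 0 to 0.06 FPKM and was not tested.

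**Figure D2:**
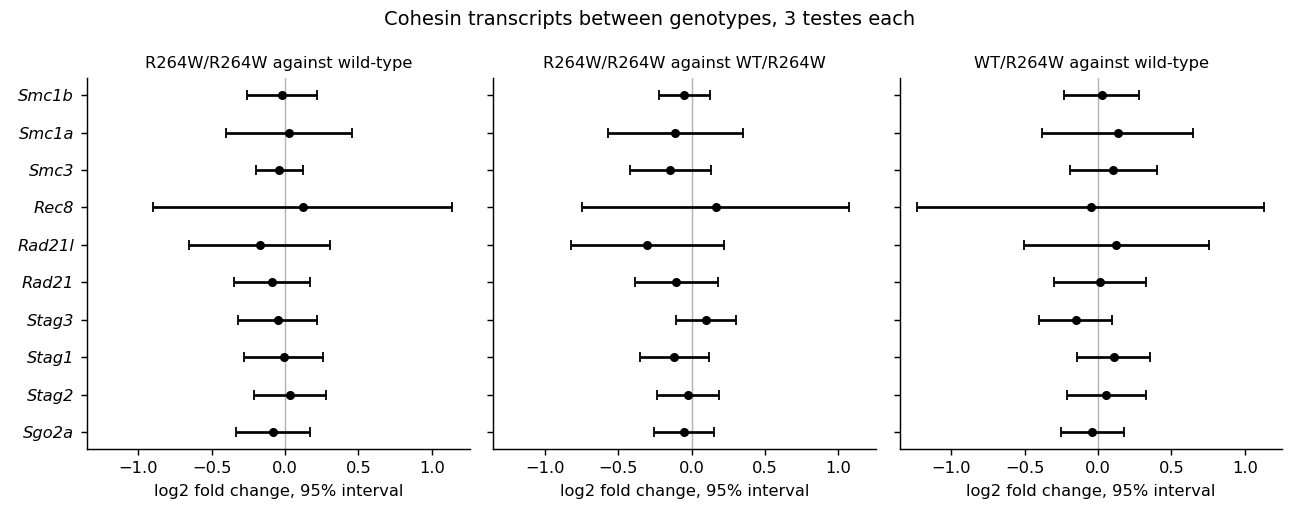
Log2 fold change of each gene in the 3 genotype comparisons, with points for the edgeR estimate and bars for its 95% interval. Every interval crosses 0. In the left panel, Piwil4 R264W/R264W against wild-type, the narrowest is that of Smc3 and the widest that of Rec8, which spans 0.537 to 2.20-fold.

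Rec8 rose steeply with the round spermatid score while the estimates for the other 9 genes lay between -0.075 and 0.049. In testes ordered from the lowest to the highest score, Rec8 had 7.47, 8.5, 12.7, 11.4, 15.4, 13.8, 19.8, 20.3 and 22.5 FPKM. Within each genotype it followed the order of the score, and over all 9 testes neighbours changed places in 2 instances. With genotype as a term, the slope was 0.33 log2 units per unit of score (SE 0.026, edgeR adjusted p = 4.09e-07, n = 9), or 1.26-fold, with a 95% interval of 1.21 to 1.31-fold per unit. Over the whole span of 4.96 units this slope gives 3.14-fold. The slope of Rec8 was higher than that of 92.6% of the 15771 genes tested, and it lay between 0.31 and 0.35 when single testes were left out. Without the testes of lowest and highest score, Piwil4 WT/R264W replicate 3 and wild-type replicate 1, it was 0.26 (adjusted p = 0.00512).

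**Figure D3:**
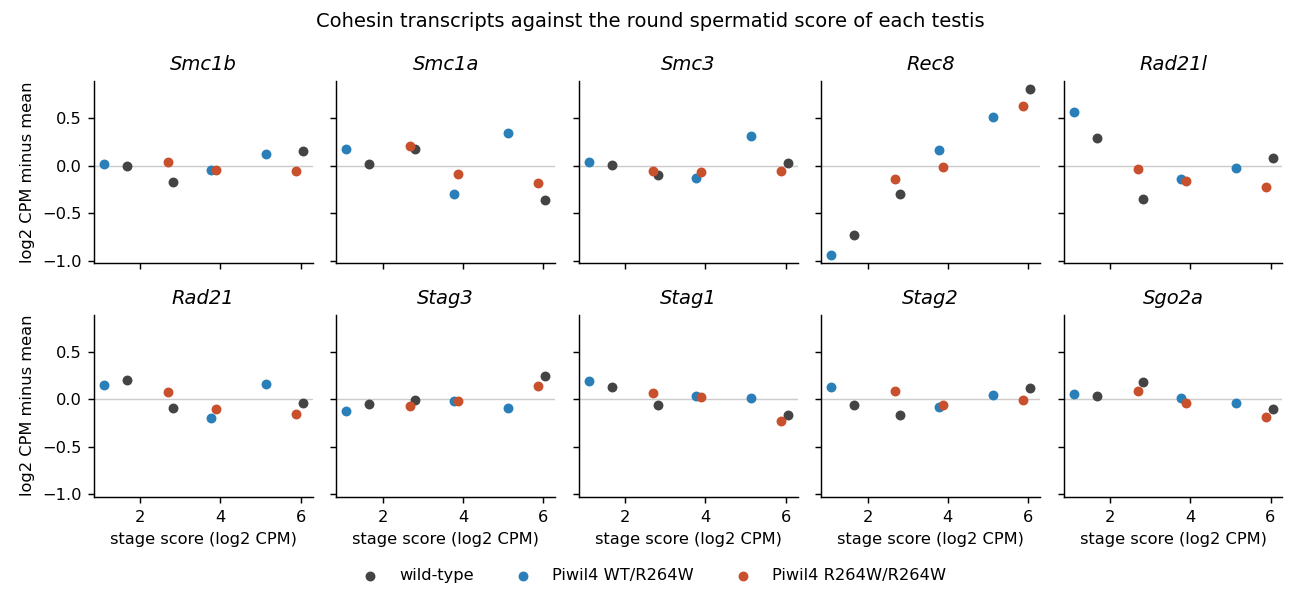
Log2 CPM of each gene minus its mean over the 9 testes, against the round spermatid score, with 1 point per testis coloured by genotype. Rec8 climbs along the score in all 3 genotypes with a slope of 0.33, whereas the points of the other genes stay near 0 or spread without such a rise.

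Of the 10 genes, 1 rose with the score and 1 fell at an adjusted p under 0.05. Over all genes tested 17.6% rose, 8.48% fell and 26.1% did either. These were 2772 and 1337 genes, against 2304 and 3352 with library totals in place of TMM scaling and 1829 and 2013 with limma on log2(FPKM + 0.1). Stag1, the more abundant general STAG, was the gene that fell, by 0.063 per unit (SE 0.017, edgeR adjusted p = 0.0189). In the same order of testes it had 35.0, 33.8, 31.4, 28.0, 29.9, 29.3, 30.2, 24.4 and 25.8 FPKM, so that both testes of lowest score were the highest and both of highest score the lowest. The call was lost without wild-type replicate 1 or 3, Piwil4 WT/R264W replicate 3 or Piwil4 R264W/R264W replicate 1 or 3, where the adjusted p reached 0.0919. Without both testes of extreme score the slope was -0.089 (adjusted p = 0.244).

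Stag3 had a slope of 0.049 (SE 0.017, edgeR adjusted p = 0.0513), and its highest levels, 195.9 and 192.1 FPKM, were in both testes of highest score. Piwil4 WT/R264W replicate 1, which has the next score, had the lowest level, 169.3 FPKM, and without this testis the adjusted p was 0.00309. The rise of Stag3 was called in 2 of 9 fits with a single testis left out. It was also called in 5 of 11 alternative fits, DESeq2 among them (adjusted p = 0.0161). Piwil4 WT/R264W replicate 1 had the highest Smc3 and Smc1b FPKM of the 9. Its pachytene score of 8.56 was lower than those of 4 other testes. Without it, Smc1a had a slope of -0.12 (adjusted p = 0.00653) and Rad21 one of -0.065 (adjusted p = 0.0365), whereas with all 9 testes the slopes were -0.060 (adjusted p = 0.290) and -0.036 (adjusted p = 0.321). Both general subunits therefore passed the threshold only in its absence. Smc1b and Smc3 had slopes of 0.025 each and Stag2 one of 0.0081, with adjusted p-values of 0.378, 0.448 and 0.822. With library totals or on the FPKM scale these 3 estimates turned below 0, and none passed.

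Rad21l and Sgo2a had falling estimates that did not pass the test. Rad21l was highest in both testes of lowest score, at 6.23 and 5.06 FPKM, and between 3.21 and 4.01 in the other 7. Its slope was -0.075 (SE 0.048, edgeR adjusted p = 0.266), with an interval of 0.883 to 1.02-fold per unit. It ran from -0.14 without wild-type replicate 1 to -0.024 without Piwil4 WT/R264W replicate 3. Sgo2a had a slope of -0.045 (SE 0.019, adjusted p = 0.101), and passed with library totals in place of TMM scaling (0.0160) and with limma on log2(FPKM + 1) (0.0452). Its level was lowest, at 21.6 and 22.5 FPKM, in both testes of highest score.

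**Figure D4:**
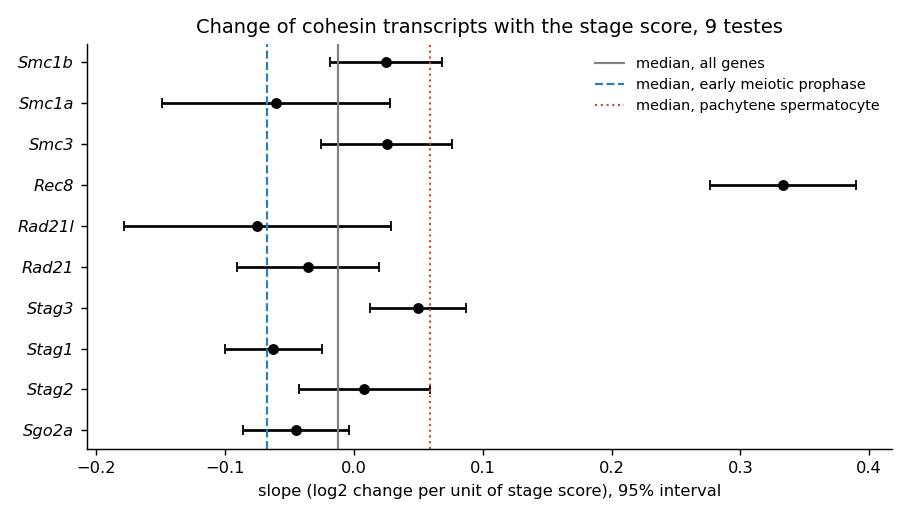
Slope of each gene, in log2 units per unit of round spermatid score, with its 95% interval, and vertical lines for the median slope of all genes (-0.012), of early meiotic prophase genes (-0.067) and of pachytene genes (0.059). Rec8 at 0.33 stands apart from the other 9, whose estimates lie between -0.075 and 0.049.

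Marker lists of cell types were set beside the same score, with which 17.6% of all genes rose and 8.48% fell. The part of these cells in the slopes was not tested. The 19 round spermatid genes that make up the score had slopes of 0.38 to 2.19. Of 20 early meiotic prophase genes 8 fell and 1 rose, with a median slope of -0.067 against -0.012 over all genes. Of 14 pachytene genes 8 rose and 1 fell (median 0.059). Of 12 spermatogonial genes tested 2 rose and 3 fell (median -0.072), of 10 Sertoli genes 1 rose and 2 fell (median -0.071), and of 6 Leydig genes 2 rose and none fell (median 0.23). Macrophage genes had 1 of 5 rising, and of the 5 peritubular myoid genes none passed (0 by edgeR adjusted p, 1 without adjustment). Without adjustment, 3427 of the 15771 genes tested rose and 2740 fell at a p under 0.05. The 726 X-linked genes had a median slope of -0.043 and the 14894 autosomal genes one of -0.012, beside -0.060 for Smc1a and 0.0081 for Stag2.

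Germline paralogues held most of the SMC1 and STAG transcript in every testis, whereas the kleisin mixture shifted between testes. Smc1b made up 94.4 ± 1.11% (SD, n = 9) of the summed FPKM of Smc1a and Smc1b, with a range of 92.4 to 95.8%. Stag3 made up 81.6 ± 2.08% of the STAG transcripts, and Stag1 74.0 ± 1.97% of those of Stag1 and Stag2. Among the kleisins, Rad21 had the largest share in each testis, at 62.3 ± 7.60%, Rec8 had 29.3 ± 9.19% and Rad21l 8.34 ± 1.97%. The share of Rec8 went from 15.4% in the testis of lowest score to 41.1% in that of highest score. From estimated counts, which are not scaled for length, its share ran from 9.92 to 29.9%. Rec8 exceeded Rad21l 1.2-fold in FPKM in Piwil4 WT/R264W replicate 3 and 6.18-fold in Piwil4 R264W/R264W replicate 3. By genotype, the Rec8 share was 28.2 ± 12.1% in wild-type, 27.7 ± 10.7% in Piwil4 WT/R264W and 32.1 ± 7.66% in Piwil4 R264W/R264W testes, differences smaller than the SD within each genotype.

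**Figure D5:**
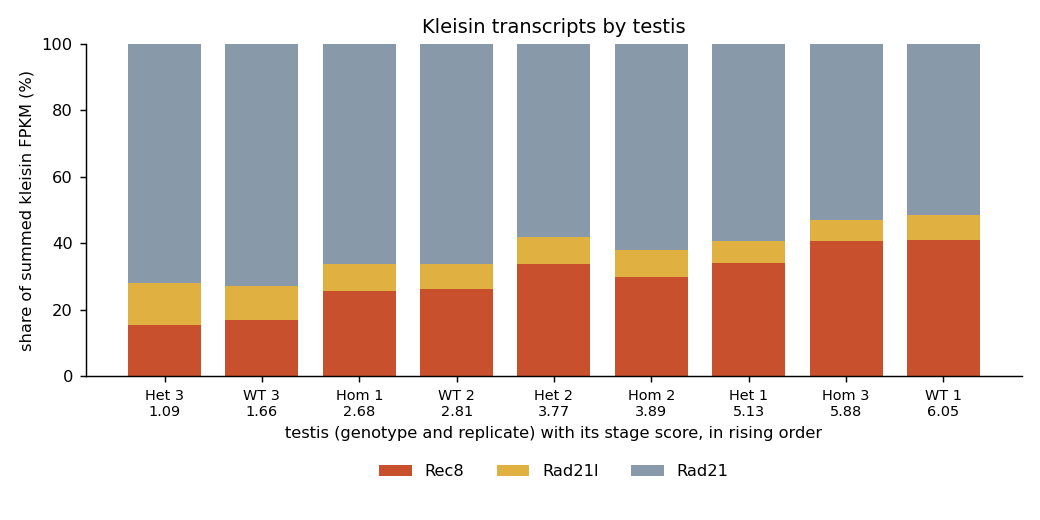
Share of the summed FPKM of the 3 kleisins taken by Rec8, Rad21l and Rad21 in each testis, as stacked bars in rising order of the round spermatid score. The Rec8 part grows from 15.4% at the left to 41.1% at the right, with Rad21 at 51.6% or more throughout.

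The genes that load, release, protect and cut cohesin gave no call by genotype. Of 45 such genes tested, together with CTCF and condensin genes, 0 passed in any genotype comparison by edgeR, beside 0% of all genes. The number at an unadjusted p under 0.05 was 1 when Piwil4 R264W/R264W was set against Piwil4 WT/R264W, beside 2.22% of all genes. It was 0 for Piwil4 R264W/R264W and for Piwil4 WT/R264W against wild-type, beside 1.26% and 1.11% of all genes. That gene was Ctcfl, a testis paralogue of Ctcf, with a log2 change of -0.59 (edgeR unadjusted p = 0.0315). Its level was low, at 0.77 to 1.6 FPKM over the 9 testes. With the score, 17.6% of all genes rose, 8.48% fell and 26.1% did either. At an unadjusted p under 0.05, 3427 of the 15771 genes tested rose and 2740 fell. Of 5 loading and acetylation genes 1 fell, Esco2, an acetyltransferase of Smc3 (slope -0.10, edgeR adjusted p = 0.0163). Wapl, Pds5a, Pds5b and Cdca5, which release or maintain cohesin, had slopes from -0.046 to 0.051, of which 0 of 4 passed (1 at an unadjusted p under 0.05). Ctcf and Ctcfl had slopes of -0.052 and -0.049, and 0 of 2 passed (1 at an unadjusted p under 0.05).

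Of 11 genes of centromeric protection tested, 2 rose (18.2%) and 2 fell (18.2%), beside 17.6% and 8.48% of all genes. Ppp2r1b, a scaffold subunit of PP2A, rose by 0.11 per unit (edgeR adjusted p = 0.00133). Sgo1, the mitotic shugoshin, fell by 0.15 (adjusted p = 0.00978) and Ppp2ca, a catalytic subunit of PP2A, fell by 0.064 (adjusted p = 0.0228). Of 9 genes of cleavage and the mitotic kinases 2 rose, namely Haspin, a histone H3 kinase at centromeres (0.13, adjusted p = 0.000598), and Plk1 (0.16, adjusted p = 0.0146). Espl1, which encodes separase, had a slope of 0.026 (adjusted p = 0.490). Of 14 genes of condensin and the Smc5-Smc6 complex, 1 rose, Nsmce1 (0.079, adjusted p = 0.0235).

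The profiles most like that of Rec8 among 11611 genes were those of Fsip1, Ppil6 and Lrrc9, measured by the root mean square difference of centred log2 CPM over the 9 testes. The difference was 0.079 for Fsip1, 0.11 for Ppil6 and 0.12 for Lrrc9, beside an SD of 0.60 for Rec8 itself. Their slopes with the score were 0.32, 0.36 and 0.32, and slopes near that of Rec8 follow from choosing genes by profile over the same 9 testes. Rad21l was nearest to Fam90a1b (0.089), Gm10778 (0.097) and Gmds (0.11), with an SD of 0.28 for Rad21l. Stag3 was nearest to Thoc5, Vps4a and Dcaf5 (0.025 to 0.030), Smc1b to Camsap2, Acbd3 and Stam2 (0.037 to 0.042), and Sgo2a to Casd1, 2310022B05Rik and Preb (0.038 to 0.046). The SD of Stag3, Smc1b and Sgo2a over the testes was 0.12, 0.098 and 0.11.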

How the data were processed

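RNA of whole testes was sequenced after a commercial mRNA library kit. Per the labels' processing notes, the submitters used fastp 0.18.0, StringTie 1.3.1 and DESeq2 with genome build mm39; the paper's methods add paired-end reads and reference-based assembly. The aligner and the tool behind the counts are not given in the sources used here. The table the authors deposited holds, per gene and testis, an FPKM value computed by the authors with StringTie and an unscaled estimated count. Whole numbers made up 89.2% of these counts, and the rest were rounded here. Columns matched the sample labels, and 0 columns were left unused.

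Genotypes were compared pairwise with the quasi-likelihood test of edgeR 4.0.16 (R 4.3.3, filterByExpr, TMM, Benjamini-Hochberg over all genes tested, two-sided). The test was also run on simulated data, and its outcome there is not reported here. The slope came from 1 edgeR fit of all 9 testes with genotype and the score (mean log2 CPM, prior count 1) as terms. Alternatives used DESeq2 1.42.0 and limma 3.58.1 on log2(FPKM + 0.1) or log2(FPKM + 1) of genes reaching 0.5 FPKM. A count of 3 corresponds to 0.122 to 0.171 CPM. The edgeR p-values set each change or slope against the spread between testes that the terms of the fit left over, moderated over genes. The 10 cohesin genes and all lists were chosen with earlier results of these data known. Named beside them were, for each list, up to 3 called genes of largest slope, and the 3 most alike profiles of genes with a mean of at least 5 CPM. Ldhc, Clu and the regulators named without a call (Ctcf, Ctcfl, Espl1, Wapl, Pds5a, Pds5b and Cdca5) lie outside this rule, chosen with their values in view. Gene models came from GENCODE M21 and promoters from RefSeq, both on GRCm38, so no coordinates were joined to the mm39 table.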

Additional observations from a re-analysis of the deposited data

How the results depend on the processing

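In the genotype comparisons the cohesin calls were 0 in every alternative run, DESeq2 called 2 genes in all (Piwil4 R264W/R264W against wild-type) and 6 (against Piwil4 WT/R264W), and small log2 changes turned sign. Against wild-type, Smc1a was -0.090 and -0.078 by limma (pseudocounts 0.1 and 1), and Stag1 0.0028 with DESeq2 size factors, 0.0031 by DESeq2 and 0.032 with the score as covariate. Against Piwil4 WT/R264W, Rec8 was -0.030 with the score as covariate. For Piwil4 WT/R264W against wild-type, limma gave Rec8 0.024 and 0.024 and Sgo2a 0.0085 and 0.0080, and the covariate Rec8 0.049. Leaving out single testes gave log2 changes against wild-type of Rad21 -0.16 to 0.011, Rec8 -0.16 to 0.70, Sgo2a -0.15 to 2.8e-05, Smc1a -0.11 to 0.16, Smc1b -0.088 to 0.065, Stag1 -0.072 to 0.080, Stag2 -0.017 to 0.12 and Stag3 -0.12 to 0.047, with 0 to 1 cohesin genes at an unadjusted p under 0.05. The other pairs ranged over Rec8 -0.15 to 0.49, Sgo2a -0.12 to 0.017, Smc1a -0.27 to 0.037, Smc1b -0.089 to 0.0013 and Stag2 -0.080 to 0.026 for Piwil4 R264W/R264W against Piwil4 WT/R264W, and over Rad21 -0.047 to 0.13, Rad21l -0.13 to 0.27, Rec8 -0.37 to 0.53, Sgo2a -0.10 to 0.061, Smc1a -0.0052 to 0.31, Smc1b -0.022 to 0.12 and Smc3 -0.024 to 0.22 for Piwil4 WT/R264W against wild-type. For the slope, 2 cohesin genes fell with library totals and with limma (pseudocount 1). With DESeq2 size factors, DESeq2, no genotype term, the pachytene score or a score of 14 genes, 2 rose. The 14-gene score left out Tnp1, Tnp2, Prm1, Prm2 and Odf1. Of all genes, 2889, 2952, 3047, 3166 and 2909 rose in these settings in turn, beside 2772 (17.6%) in the main fit. Genes falling numbered 3352 with library totals, 2013 and 2369 by limma and 2170 with the pachytene score, beside 1337 (8.48%) in the main fit. By limma (0.1), 1829 rose. Without both testes of extreme score 36 fell, 1020 rose and 0 cohesin genes fell; this alternative and the 14-gene score were chosen after seeing the data. Slopes turned to -0.0016, -0.0023, -0.0022 and -0.013 for Smc1b, and to -0.00072, -0.0028 and -0.0026 for Smc3, with library totals, by limma (0.1, 1) and, for Smc1b, without the extreme testes. Stag2 had -0.018, -0.016, -0.015 and -0.014 in these 4 settings. Leaving out single testes gave slopes of Smc1b -0.0024 to 0.033, Smc3 -0.0046 to 0.034 and Stag2 -0.029 to 0.027, 0 to 3 cohesin genes falling, 1 to 2 rising, 361 to 2784 of all genes falling and 1708 to 3427 rising. From estimated counts, not scaled for length, shares were 74.8% for Stag3, 70.8% for Stag1, 4.28% for Rad21l, 75.5% for Rad21 and 20.2% for Rec8. The labels do not state that replicate numbers pair the testes. Correlations of deviations between testes of the same number ran from -0.88 to 0.92. For Piwil4 WT/R264W against wild-type they were 0.81, -0.29 and 0.92 in replicates 1 to 3. For Piwil4 R264W/R264W they were -0.87, 0.098 and -0.87 against wild-type and -0.78, -0.42 and -0.88 against Piwil4 WT/R264W. A replicate block gave Rec8 an SE of 0.17 in place of 0.49 for Piwil4 WT/R264W against wild-type. With a replicate block in the slope, 862 genes fell, Stag2 had -0.0029, and cohesin calls were 1 rising and 1 falling as without it. The causes of these shifts were not tested. Rec8 had 305 to 1162 counts per testis and Rad21l 103 to 193.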
